A study of Nothobranchius furzeri with 20 samples.

Results

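Brains of 14-week-old turquoise killifish (Nothobranchius furzeri) were compared with brains of 5-week-old fish by RNA sequencing. The comparison takes the 10 libraries whose age label is 14 weeks or 5 weeks, 5 at each age, out of 20 libraries of the series. All fish were males of the inbred strain GRZ, and no treatment or genetic change is labelled at either age. The remaining libraries, 5 at 10 weeks and 5 at 7 weeks, entered the statistical fit. There they took part in the spread between libraries, the filter on low counts and the scaling. Their levels are given beside some results. Whether a library is 1 fish or a pool is not labelled, so the p-values measure the spread between these libraries, which may be partly technical. Running numbers in the sample titles are higher at 14 than at 5 weeks. What they stand for is not labelled, and their part in any difference cannot be told apart from that of age.

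The turquoise killifish lives in seasonal pools and is among the shortest-lived vertebrates kept in the laboratory, and GRZ is a short-lived strain of it. The brain of a teleost keeps adding neurons in adult life from stem cells, and in this species that production is known to decline with age. The count table identifies genes only by number, and 0 of its 26739 identifiers were found in the RefSeq gene table of assembly NfurGRZ-RIMD1. Genes are therefore described by level, length and behaviour across libraries. The tissue label could not be checked against markers of neurons, glia or blood. In whole brain, fewer cells of a type and less RNA per cell cannot be told apart.

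The 10 libraries held 12004412 to 27106236 counted reads each and 21385 to 22938 identifiers with at least 1 read. Replicates 4 and 5 of 5 weeks stood apart from the other 5-week libraries. They were the deepest and the shallowest of the 10. Of 17960 genes with a mean of at least 1 CPM (read count scaled to library size, per 1 M reads, M for mega), 263 in replicate 4 and 296 in replicate 5 lay more than 4-fold above the median of the other libraries of that age, against 3 to 13 in replicates 1, 2 and 3. At 14 weeks replicate 5 stood apart in the other direction, with 360 genes more than 4-fold below the rest of its age, against 8 to 66 in replicates 1 to 4.

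Old brains had higher levels of 195 genes and lower levels of 287 genes than young brains, out of 19474 expressed genes tested (edgeR's quasi-likelihood test with Benjamini-Hochberg adjustment, threshold 0.05). That is 2.48% of the genes tested, with 1.0% higher and 1.47% lower. Most of these changes were under 2-fold. Among the higher genes 62 changed by less than 1.5-fold, 80 by 1.5 to under 2-fold, 50 by 2 to under 4-fold and 3 by 4-fold or more. Among the lower genes the numbers were 82, 101, 71 and 33. Many calls were close to the threshold. Of the 482 genes, 322 had an adjusted p of 0.03 or more, 36 had one under 0.01, and the lowest was 0.0041.

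CPM divides by a scaled library size, so its sum over genes, in percent of 1 M, is not an exact share of the counts. Over all tested genes this sum ran from 87.0% in 5-week replicate 5 to 105.6% in 5-week replicate 4. Over the 195 higher genes it was 1.06 to 1.32% in the 14-week libraries, against 0.641 to 0.756% in the 5-week libraries. For the 287 lower genes it was 1.5 to 1.76% at 14 weeks and 2.27 to 3.25% at 5 weeks, with the highest sum in 5-week replicate 4. These genes were chosen for differing between these libraries, so that the sums do not overlap is no separate result. The test also favours genes of small spread within an age, so the values by library that follow are a description. The median of the 195 genes lay 0.61 to 0.79 above the 5-week mean on the log2 CPM scale in the 14-week libraries, and between -0.07 and 0.09 in the 5-week libraries. The median of the 287 genes lay between -1.0 in replicate 4 and -0.60 in replicate 2 at 14 weeks. Replicates 4 and 5 of 5 weeks had medians of 0.13 and -0.03 there, and -0.05 and 0.09 for the higher genes. Of all tested genes, 316 were at least 4-fold higher in replicate 5 than in every other young library, and none of the 482 called genes was.

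**Figure D1:**
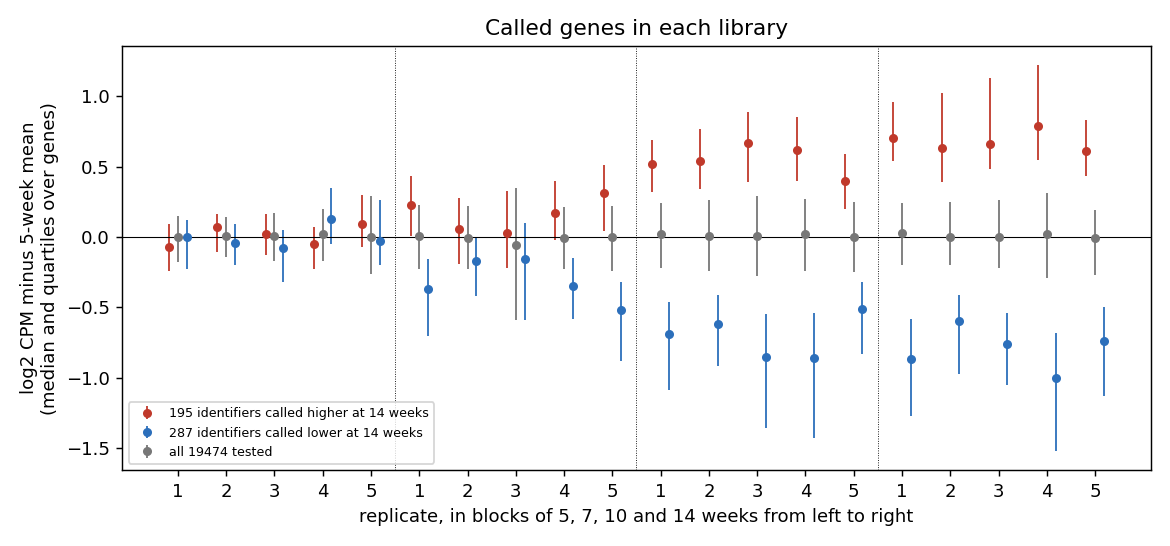
Level of the called genes in each library, as log2 CPM minus the mean of the 5-week libraries (vertical axis), for replicates 1 to 5 of 5, 7, 10 and 14 weeks (horizontal axis); points are medians over genes and bars reach from the first to the third quartile. All 14-week medians of the 195 higher genes lie at 0.61 or above and all those of the 287 lower genes at -0.60 or below, while the median of all tested genes stays near 0.

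The largest falls were a different matter, since most of them rested on 5-week replicate 4. In 26 of the 33 genes that fell at least 4-fold, replicate 4 was the highest 5-week library, and in 17 it exceeded each of the other 4 by at least 4-fold. Over all 19474 tested genes it did so in 181, or 0.929%. The gene with the largest fall, of 5817 bases, had 0.090, 0.259, 0.208, 0.130 and 0.204 CPM in the 14-week libraries, against 0.148, 0.433, 0.221, 110 and 1.02 CPM in 5-week replicates 1 to 5. The groups overlap, and replicate 4 alone sets the 5-week mean, while the 10- and 7-week libraries had at most 1.06 CPM. Its log2 fold change was -6.96 ± 1.67 (SE; adjusted p = 0.038 by edgeR) and -1.30 without replicate 4 (adjusted p = 0.41). Over the 33 genes the median log2 fold change was -3.27 with all libraries and -1.61 without replicate 4, where 6 of them were called and 8 still fell at least 4-fold. Without replicate 5 the median was -3.37 and 29 were called. Replicate 4 lay at least 4-fold above the median of the other 4 young libraries in 23 of the 33 genes. Among the 254 falls under 4-fold it did so in 6. The median log2 fold change of those 254 genes was -0.78 with all libraries and -0.74 without replicate 4.

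Without that library 6 of the 33 genes were called, against 66 of the 254 falls under 4-fold and 101 of all 482 called genes. Still falling at least 4-fold there were 8 of the 33 genes, but not all of these kept their call. A gene of 444 bases, for example, had a log2 fold change of -4.12 with all libraries and -4.29 without replicate 4. It was not called there (adjusted p = 0.065 by edgeR). Falls of at least 4-fold that were called with all libraries and without replicate 4, and were still at least 4-fold there, numbered 4. Nfu_g_1_023228, a gene of 915 bases, had 0, 0, 0, 0.043 and 0.051 CPM at 14 weeks, against 4.49, 2.07, 1.38, 1.09 and 1.89 CPM at 5 weeks. All 14-week libraries lay below all 5-week libraries. That is 2 reads at 14 weeks and 213 at 5 weeks, a ratio of 0.00895 per read of depth with an exact 95% interval of 0.00108 to 0.0327, which covers counting error only. The edgeR adjusted p was 0.0041. At 7 weeks this gene was at 0.515 to 3.88 CPM, within or below the 5-week range, and at 10 weeks at 0 to 0.170 CPM. Another of the 4, with 432 bases, had 3 reads at 14 weeks and 241 at 5 weeks (edgeR adjusted p = 0.0041) and lay at 0 to 0.428 CPM at 10 weeks against 1.27 to 6.73 CPM at 7 weeks. Both were thus low from 10 weeks on. A gene of 3219 bases had 1.71, 3.0, 3.54, 0.957 and 2.5 CPM at 14 weeks, against 9.87, 16.5, 7.02, 14.0 and 9.89 CPM at 5 weeks, and its log2 fold change was -2.30 ± 0.39 (SE; adjusted p = 0.0075 by edgeR). The last, of 3989 bases, had 0.090 to 0.261 CPM at 14 weeks and 0.481 to 3.93 CPM at 5 weeks, with its highest value in 5-week replicate 5. No gene met a stricter rule of loss or gain, which asked for 0 reads in at least 4 libraries of 1 age and at least 5 reads in each of at least 4 libraries of the other.

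The 3 rises of at least 4-fold shared a pattern. In each of them 14-week replicate 5 lay within the range of the 5-week libraries and the other 4 old brains were high. Replicate 5 of 14 weeks was at least 4-fold below every other old library in 4 of the 195 higher genes. Over all 19474 tested genes it was so in 219, or 1.12%. The largest rise, a gene of 1904 bases, had 716, 1727, 1342, 790 and 4.44 CPM in 14-week replicates 1 to 5, against 3.70, 7.99, 0.332, 9.44 and 2.4 CPM at 5 weeks. Its log2 fold change was 7.55 ± 1.74 (SE; adjusted p = 0.033 by edgeR). It was at 0.300 to 8.85 CPM in the 10-week libraries, at 155 CPM in 7-week replicate 1 and at 0.520 to 3.65 CPM in the other 7-week libraries, so high levels were not limited to the oldest fish. The next, of 1089 bases, had 7.99, 15.98, 12.7, 7.57 and 0.153 CPM at 14 weeks and 0.099 to 1.24 CPM at 5 weeks, with 3.99 CPM in the same 7-week library. All 3 were called without 14-week replicate 5 and none without 5-week replicate 4 (edgeR adjusted p = 0.067, 0.080 and 0.084), although their log2 fold changes without replicate 4 were 7.95, 4.26 and 2.20. Of all 195 higher genes, 29 were called without 5-week replicate 4.

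**Figure D2:**
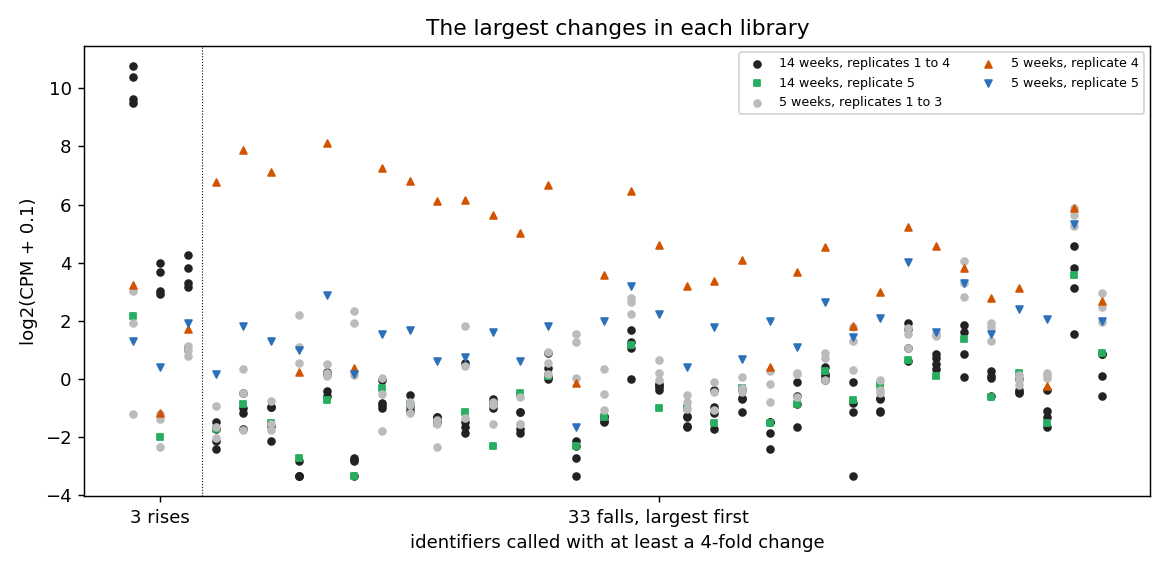
Level in each of the 10 libraries, as log2 of CPM plus 0.1 (vertical axis), of the 3 rises and 33 falls of at least 4-fold, each sorted by size (horizontal axis); every point is 1 library. Orange triangles, 5-week replicate 4, stand far above the other young brains in most of the large falls, and green squares, 14-week replicate 5, lie among the young brains in the 3 rises.

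Of the genes called without 5-week replicate 4, without replicate 5 and with all libraries, with a mean of at least 1 CPM in these 10 libraries and full separation of the ages, 25 were higher and 66 lower. Over all tested genes, called or not, every 14-week library lay above every 5-week library in 1.93% and below in 3.31%. The 2 with the smallest p in each direction are named here. Nfu_g_1_009166, of 822 bases, had 55.8, 41.9, 52.6, 61.1 and 54.9 CPM at 14 weeks, against 31.4, 30.1, 36.7, 36.9 and 30.6 CPM at 5 weeks. Its lowest old brain lay above its highest young one. The means were 53.3 ± 7.07 CPM at 14 weeks and 33.1 ± 3.39 CPM at 5 weeks (SD, n = 5 each), and the log2 fold change was 0.68 ± 0.11 (SE; adjusted p = 0.0043 by edgeR). Nfu_g_1_004614, of 6174 bases, had 56.3, 56.8, 58.6, 33.8 and 35.3 CPM at 14 weeks, against 11.99, 20.3, 17.8, 19.3 and 17.4 CPM at 5 weeks. Its old brains fell into 3 higher and 2 lower libraries, all above the young ones. Its log2 fold change was 1.47 ± 0.23 (SE; adjusted p = 0.0048 by edgeR).

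The other falling gene beside Nfu_g_1_023228 was Nfu_g_1_021776, of 5073 bases. It had 54.1, 53.7, 59.4, 51.6 and 58.9 CPM at 14 weeks, against 86.2, 95.8, 89.8, 118 and 79.4 CPM at 5 weeks. The old brains lay close together, at 55.5 ± 3.43 CPM, and the young ones were wider apart, at 93.9 ± 14.8 CPM (SD, n = 5 each). Its log2 fold change was -0.76 ± 0.11 (SE; adjusted p = 0.0041 by edgeR). The 4 named genes also differ in their course at the ages between. At 10 weeks Nfu_g_1_021776 was at 59.4 ± 6.12 CPM, close to its 14-week level, and Nfu_g_1_004614 at 27.9 ± 11.3 CPM, nearer to its 5-week level of 17.4 ± 3.22 CPM. Nfu_g_1_009166 was at 44.7 ± 1.98 CPM at 10 weeks and at 33.3 ± 4.4 CPM at 7 weeks. Each of the 4 was called in the same direction in all 22 other fits that were run, with adjusted p-values of at most 0.049. The fits without 5-week replicate 4 and without replicate 5 took part in choosing these genes.

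**Figure D3:**
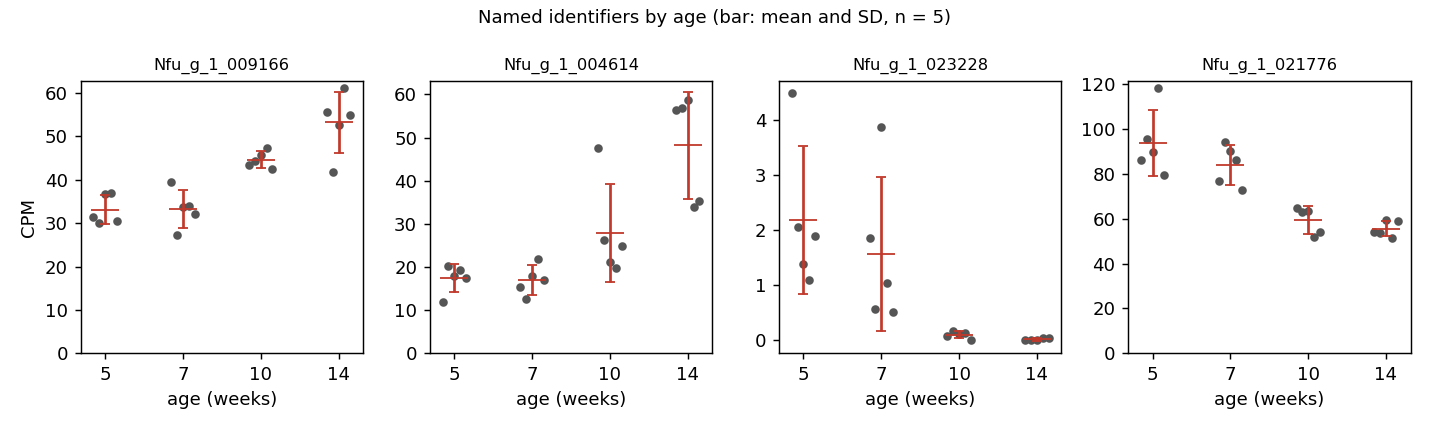
CPM (vertical axis) of the 4 named genes in every library at 5, 7, 10 and 14 weeks (horizontal axis); points are libraries and red bars the mean and SD of 5. The 14-week points lie above all 5-week points in Nfu_g_1_009166 and Nfu_g_1_004614 and below them in Nfu_g_1_023228 and Nfu_g_1_021776.

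How many genes were called depended on single libraries. The largest move in number of genes, though not in fold, came from a library of neither age, 7-week replicate 3. Over all tested genes the quartiles of its log2 CPM minus the 5-week mean were -0.59 and 0.35. In the other 7-week libraries these quartiles were -0.24 to -0.23 and 0.21 to 0.23. Replicate 3 of 7 weeks was the only library of 7 or 10 weeks that was left out. It enters through the spread, and also through the filter on low counts and the scaling, with 19588 genes tested without it. Without it 430 genes were higher and 767 lower, all 482 among them. Without 5-week replicate 4, 30 genes were higher and 74 lower, and 29 of the 195 and 72 of the 287 were among them. Without 5-week replicate 5, 299 were higher and 402 lower, with 157 of the 195 and 241 of the 287 among them. Without both, 116 were higher and 150 lower. The loss without replicate 4 was not peculiar to it, since leaving out 14-week replicate 1, 3, 4 or 5 left 90, 117, 82 or 227 genes, and 5-week replicate 1 left 270. The sizes of the changes moved less than the counts. The median log2 fold change of the 195 genes was 0.71 with all libraries, 0.67 without 5-week replicate 4 and 0.74 without replicate 5. For the 287 genes it was -0.82, -0.80 and -0.82. Without replicate 4, 29 of the 287 lower genes and 0 of the 195 higher genes moved by more than 1.5-fold, and without replicate 5, 4 and 1 did. The adjusted p of the 482 genes had a median of 0.033 with all libraries, 0.075 without replicate 4, where 400 stayed under 0.1, and 0.031 without replicate 5. Whichever of the 10 libraries was left out, 20 of the higher and 46 of the lower genes were called. In all 22 other fits 7 higher and 25 lower genes were called.

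**Figure D4:**
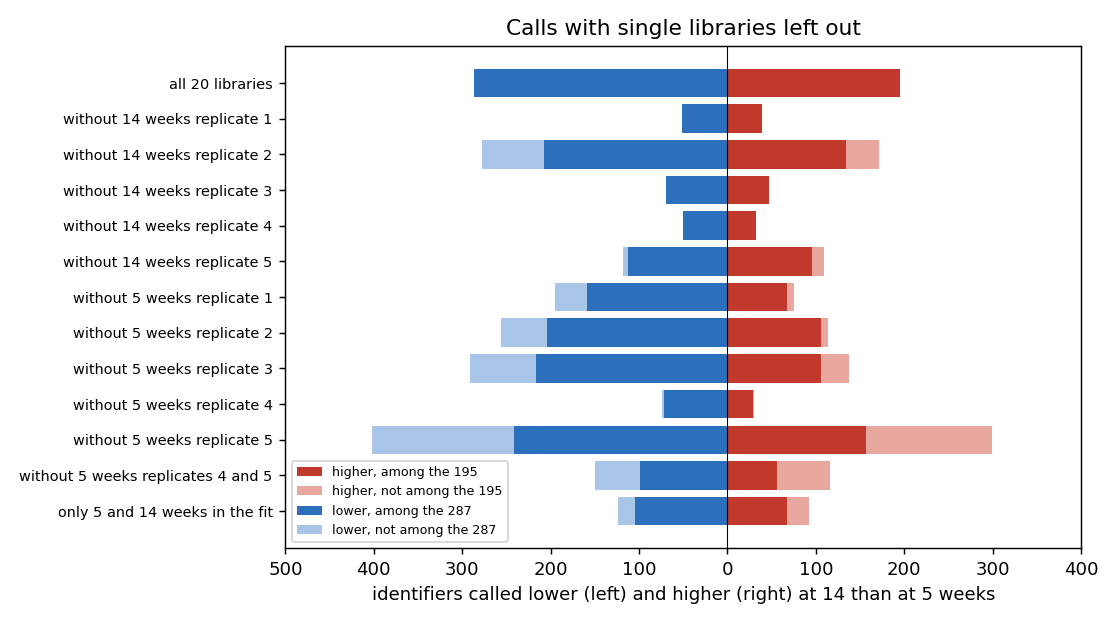
Number of genes called lower (left of 0) and higher (right of 0) at 14 than at 5 weeks with all 20 libraries and with libraries left out (rows); dark bars are genes also called with all libraries, pale bars are others. The rows with a single young library left out run from 30 higher and 74 lower without 5-week replicate 4 to 299 and 402 without 5-week replicate 5.

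**Figure D5:**
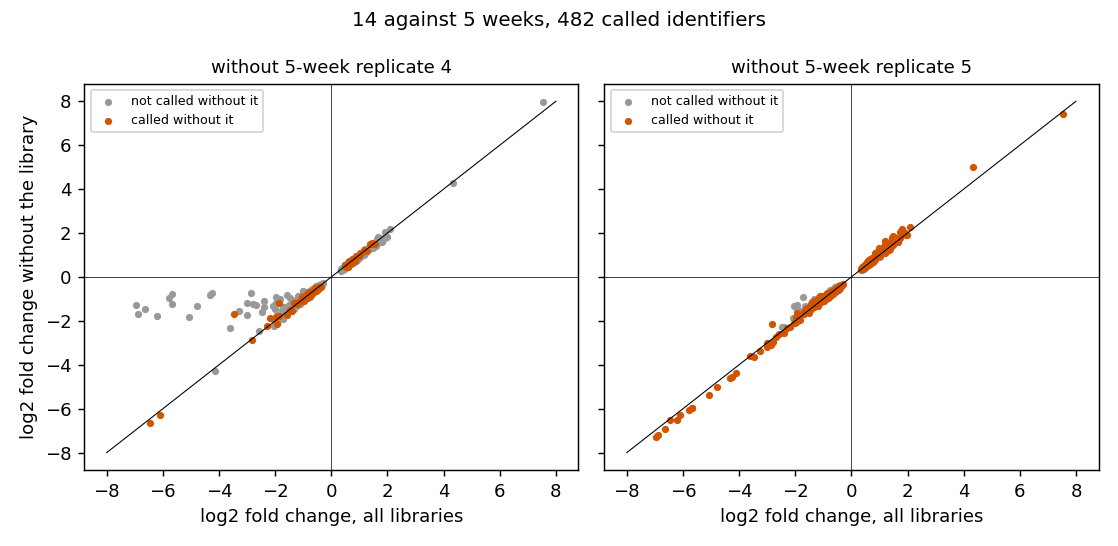
Log2 fold change of the 482 called genes without 5-week replicate 4 (left panel) or replicate 5 (right panel) on the vertical axis, against that with all libraries on the horizontal axis; orange points were called without the library and the diagonal marks equal values. Many of the largest falls move to between -2 and 0 without replicate 4, while without replicate 5 nearly all points stay at the diagonal.

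The 7 genes called higher in every fit had a median of 27.6 CPM over the 20 libraries and log2 fold changes of 0.68 to 1.47. The 25 called lower in every fit had a median of 29.0 CPM and a median absolute log2 fold change of 0.97, with 12 changed at least 2-fold. Relative to the 5-week mean, the 7 genes had a median log2 difference of 0.78 at 14 weeks, 0.47 at 10 weeks and 0.00 at 7 weeks. For the 25 genes it was -0.95 at 14 weeks, -0.81 at 10 weeks and -0.33 at 7 weeks. Over all 195 higher genes the differences were 0.69, 0.55 and 0.18, and over all 287 lower genes -0.82, -0.72 and -0.30, against 0.01, 0.01 and -0.02 over all tested genes. The 5-week baseline is shared by the 3 ages and took part in choosing the genes. Between 10 and 7 weeks the median difference was 0.38 for the higher and -0.35 for the lower genes, against 0.04 for all tested genes. These ages share no library with the comparison. Their libraries did enter the fit that chose the genes, through the spread, the filter on low counts and the scaling. The 10-week mean lay beyond the 14-week mean in 53 of the 195 higher and 114 of the 287 lower genes. Over all tested genes it did so in 9450 of 19474.

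The level of the genes differed between the directions. Under 1 CPM, 1.12% of the tested genes were called lower and 0.198% higher, or 17 and 3 genes. Lower genes made up 2.05% of the tested genes with a mean of 1 to under 10 CPM, and higher genes 0.924%. At 10 to under 100 CPM the shares were 1.14% lower and 1.22% higher, and at 100 CPM and over 1.59% lower and 0.838% higher. The excess of falls at 1 to under 10 CPM turned round without 5-week replicate 5, the library with the most genes detected, where 1.90% were lower and 2.20% higher. Under 1 CPM it turned round as well, with 0.727% lower and 1.52% higher. At 100 CPM and over it grew, with 3.35% lower and 0.544% higher without that library. Without replicate 4 the shares at 1 to under 10 CPM were 0.437% lower and 0.118% higher, or 26 and 7 genes.

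Among the 100 most abundant genes of the 10 libraries, at 707 to 7086 CPM, 5 were called and all were lower, against 2.48% called and 1.47% called lower over all tested genes. Over the 100 genes the log2 fold change ran from -4.62, in a gene that was not called, to 0.58. The most abundant of the 5 called genes had 2568, 2851, 2636, 2684 and 3507 CPM at 14 weeks, against 4879, 5470, 3909, 6082 and 3598 CPM at 5 weeks. The groups do not overlap, with 14-week replicate 5 and 5-week replicate 5 the closest across the ages. Its log2 fold change was -0.75 ± 0.16 (SE; adjusted p = 0.027 by edgeR). The second had 841, 778, 856, 1015 and 967 CPM at 14 weeks and 1551, 1920, 1565, 2670 and 1558 CPM at 5 weeks. Its log2 fold change was -1.06 ± 0.19 (SE; adjusted p = 0.0099 by edgeR). This second gene was the only one of the 5 still called without 5-week replicate 4 (adjusted p = 0.024 by edgeR), and all 5 were called without replicate 5. Of all 482 called genes, 101 were called without replicate 4 and 398 without replicate 5.

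For many genes a large change is bounded by the data. The 95% interval of the log2 fold change lay within 1.5-fold in either direction for 9738 of the 19474 tested genes and within 2-fold for 15212, or 78.1%. Within 2-fold lay 95% of the genes at 100 CPM and over, 91.1% at 10 to under 100 CPM, 66.4% at 1 to under 10 CPM and 15.5% under 1 CPM. Of the 100 most abundant genes 92 had an interval within 2-fold. For most genes under 1 CPM a 2-fold change was therefore not excluded, although 20 of them were called.

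Gene length, solved from the deposited tables, also differed between the called groups. The median was 3884 bases for the higher and 3111 bases for the lower genes, against 2670 bases for all tested genes. With the tested genes in 4 length classes of equal size, 1.69% of the longest, over 4670 bases, were called higher, against 0.739%, 0.698% and 0.884% of the 3 shorter classes, shortest first. Lower genes were most frequent at 2670 to 4670 bases, at 2.26%, against 1.17% and 1.21% in the shorter classes and 1.25% in the longest. Longer genes also had higher counts, with a median of 48.3 CPM in the longest and 7.60 CPM in the shortest class, and the part of this in the shares was not tested. Without 5-week replicates 4 and 5 together the higher genes made up 0.267%, 0.657%, 0.720% and 0.719% of the classes from the shortest to the longest, so the excess in the longest class was not kept. Without replicate 4 alone the longest class was the highest, at 0.0822%, 0.0821%, 0.144% and 0.308%, but these shares are only 4, 4, 7 and 15 genes. Without replicate 5 alone the longest class was still the highest, at 0.986%, 1.52%, 1.71% and 1.93%. Lower genes were most frequent at 2670 to 4670 bases in each of these fits, at 1.34% without both, 0.576% without replicate 4 and 2.86% without replicate 5.

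None of 4 measures of whole libraries passed its test between the ages. Each was tested with an exact permutation test, two-sided, over all assignments of the 10 libraries to the ages, which cannot give a p below 0.0079, and adjusted over the 4 measures. At an equal depth of 12004412 reads 21245 ± 180 genes were detected at 14 weeks and 21500 ± 807 at 5 weeks (SD, n = 5 each; exact permutation p = 0.84, adjusted p = 0.84). Without 5-week replicate 5, which had 22938 genes against 21050 to 21257 in the other young brains, the difference was 104 genes instead of -256. The 10 most abundant genes took 3.46 ± 0.315% of the counts at 14 weeks and 4.02 ± 0.570% at 5 weeks (exact permutation p = 0.063, adjusted p = 0.24), with the highest share, 5.01%, in 5-week replicate 4. The count-weighted median gene length of a library was 4004 ± 150 bases at 14 weeks and 3841 ± 168 bases at 5 weeks (exact permutation p = 0.16, adjusted p = 0.24).

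The old brains did not have the larger spread when all libraries were kept. The mean distance of a library to the centroid of its age, over log2 CPM of all tested genes, was 51.2 ± 11.7 at 14 weeks and 65.2 ± 17.1 at 5 weeks (SD, n = 5 each; exact permutation p = 0.18, adjusted p = 0.24). Per gene, the SD between libraries had a median of 0.214 at 14 weeks and 0.262 at 5 weeks on the log2 CPM scale, and was larger at 14 weeks in 37.5% of 17960 genes. Without 5-week replicate 4 that share was 41.2%, without replicate 5 it was 52.2%, and without both it was 63.0%. These shares set 4 or 3 young libraries against 5 old ones, and groups of equal size were not compared.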

How the data were processed

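The libraries were prepared from total RNA with the TruSeq RNA v2 kit, per the labels' protocols. CASAVA 1.8.2, STAR 2.4.1d and, for counting, featureCounts 1.4.6-p4 are named in the submitters' processing notes. Build, annotation and strand setting are not stated there, so overlapping or antisense genes and near-identical copies may share reads. Deposited were raw counts per gene identifier. The deposited RPKM values equal count over gene length and a library total, but the totals run through the table in a rotation of 25, of which 20 match the libraries. With it 100.0% of the RPKM values came back within 0.0011 plus 0.1% of the value, against 4.50% with each library's own total. They served only to solve lengths (21816 genes).

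The tests on the counts used edgeR 4.0.16 under R 4.3.3 (TMM, filterByExpr by age, robust quasi-likelihood fit of all 20 libraries, 1 mean per age, Benjamini-Hochberg). Log2 CPM for display used a prior count of 2. SE is the absolute log2 fold change divided by the square root of F. Replicates are numbered in accession order and pair nothing. Every pair of libraries of 1 age differed by far more than sampling noise. Members, classes and tests were chosen with earlier results of these data known. The named genes were the 2 per direction of smallest p among those called with all libraries, without 5-week replicate 4 and without replicate 5, with a mean of at least 1 CPM and full separation. Lists of cell type markers could not be used without gene names. The code was tested on simulated data. Alternatives were DESeq2 1.42.0, limma-voom (limma 3.58.1), other scaling and filters, no robust step, fits of the 2 ages alone, and libraries left out. The shares by level and length and the SD per gene without 5-week replicates 4 and 5 were added after seeing the data.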

Additional observations from a re-analysis of the deposited data

Results flagged for a closer look

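In 16 groups of 5 libraries examined (4 named genes and 4 library measures at 2 ages), 3 held a value far from the others, where chance gives about 1 in 20. The gap to the nearest value exceeded 0.71 of the range, Dixon's critical value for 5. At equal depth 22938 genes were detected in 5-week replicate 5. The 10 most abundant genes took 5.01% of the counts in 5-week replicate 4. Nfu_g_1_023228 was at 4.49 CPM in 5-week replicate 1, and the next highest young brain was at 2.07 CPM.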

How the results depend on the processing

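The direction of the 4 named genes and their calls were the same in all 22 other fits. They were chosen for small p and for their calls without 5-week replicate 4 and without replicate 5, so this is no separate result. The number of called genes differed between fits. DESeq2 called 465 higher and 762 lower genes. With only the 2 ages in the fit, edgeR called 92 higher and 124 lower, 13 and 37 when 5-week replicate 4 was also left out, and 69 and 111 without replicates 4 and 5. In the fit of all ages without these 2 libraries there were 116 and 150. Leaving out single libraries gave 30 to 430 higher and 50 to 767 lower genes, the highest of each without 7-week replicate 3. That library enters through the spread, the filter on low counts and the scaling. Limma-voom, other scaling, no robust step and the filters on low counts stayed within 1.5-fold of both counts. For genes detected at equal depth, the difference ran from -368.4 to 103.6 over single libraries left out, and was 142 without 5-week replicates 4 and 5, where the difference in distance to the centroid was 13.1, a comparison of 3 young with 5 old libraries in which the smaller group's distance is lower by construction. No measure passed its test under any alternative. No paired analysis was possible because replicate numbers follow accession order. The cause of these changes was not tested. Intervals were widest for genes of low counts, and the part of depth in this was not tested.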
